A study of Rattus norvegicus with 12 samples.

Results

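Macrophage identity genes were read in RNA of rat epididymal adipocytes after chronic unpredictable stress (CUS) and under control conditions. The set holds 10 genes, namely Csf1, Csf1r, Cd68, Cd163, Mrc1, Lyz2, Emr1, Cd14, Itgam and Marco, of the 26541 gene names carried by the arrays. They were taken by gene name, with every probe kept separately, which gave 12 probes. The CUS group was made up of 6 male Fisher 344 rats that received 2 stressors per day for 35 days in a random order (swimming, rotation, isolation, food and water deprivation, altered light, wet bedding and crowding among them), and the control group of 6 male Fisher 344 rats that were handled for weighing every 2 days. Neither group carried a transgene or a deletion, and the labels give no age. One array was hybridised per rat. The labels name the cell type as epididymal adipocytes, while their extraction text speaks of preadipocytes, and nothing in the labels describes a removal of blood or immune cells.

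Macrophages are the main resident immune cells of adipose tissue, where they take up lipid, dead cells and hemoglobin. They arise and survive through the receptor CSF1R, a tyrosine kinase at the cell surface that is activated by the growth factors CSF1 and IL-34. Resident macrophages carry scavenger receptors such as CD163 and the mannose receptor MRC1. CD14 and the integrin ITGAM are carried by monocytes and macrophages alike, so they do not tell arriving cells from resident ones. In fat, the number and state of macrophages are known to change with obesity and with lipolysis.

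Every value below is a log2 intensity of a probe relative to the 75th percentile of the non-control probes of its array, so that 0 is the level of that percentile and a difference of 1 is a doubling. Levels are compared between rats for one probe and not between probes. The arrays of the 6 CUS rats shared one slide and those of the 6 control rats a different one, and slide and treatment cannot be told apart. The 75th percentile was an intensity of 541.1 to 626.6 on the CUS arrays and of 229.5 to 399.7 on the control arrays. Spike-in RNAs differed by -0.83 after the scaling (exact permutation test, two-sided, p = 0.0043) and by -0.05 without it (exact permutation test, p = 0.74), and with spike-in scaling the median probe was 0.81 higher in CUS. Differences are therefore relative to the other transcripts of an array. Spike-in scaling raises the log2 difference of a probe by a median of 0.83, and small negative differences given here turn positive with it. All 11 adipocyte markers with a probe were measured, and the adipocyte hormone Adipoq had a level of 8.33 to 8.70 in CUS and 8.14 to 9.20 in controls. Control replicate 3 stood apart from the other control arrays. Its mean level was 5.19 for adipocyte markers, against 4.15 to 4.36 in the other controls, and -0.46 for endothelial markers, against 0.99 to 1.40. Its pan-leukocyte markers averaged 0.10, against 1.10 to 1.68. Member differences are given with and without this rat where it decides them.

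Of the 12 probes, 10 probes of 9 genes gave a signal well above background on 6 or more of the 12 arrays. These were tested with limma, and p-values were adjusted after Benjamini-Hochberg over the 19727 probes of the array that met this condition. Cd14 and the downstream probe of Csf1r were higher in CUS, Lyz2 and the upstream probe of Csf1r were lower, and the remaining 6 probes missed the threshold of an adjusted p of 0.05. The share of member probes called was 40%, against 50.1% of all tested probes (24.7% higher and 25.4% lower), so that a call was no more frequent in the set than on the array as a whole. Their median log2 difference was 0.27, against -0.02 over all tested probes. It lies between the differences of Csf1 (0.24) and Mrc1 (0.31), and it depends on control replicate 3 and on the background method. These differences were 0.03 and 0.09 without that rat, and 0.25 and -0.20 with the normexp background correction. The groups did not overlap for 2 of the 10 member probes, both of Csf1r, against 21.8% of all tested probes. No member probe was saturated on any array.

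**Figure D1:**
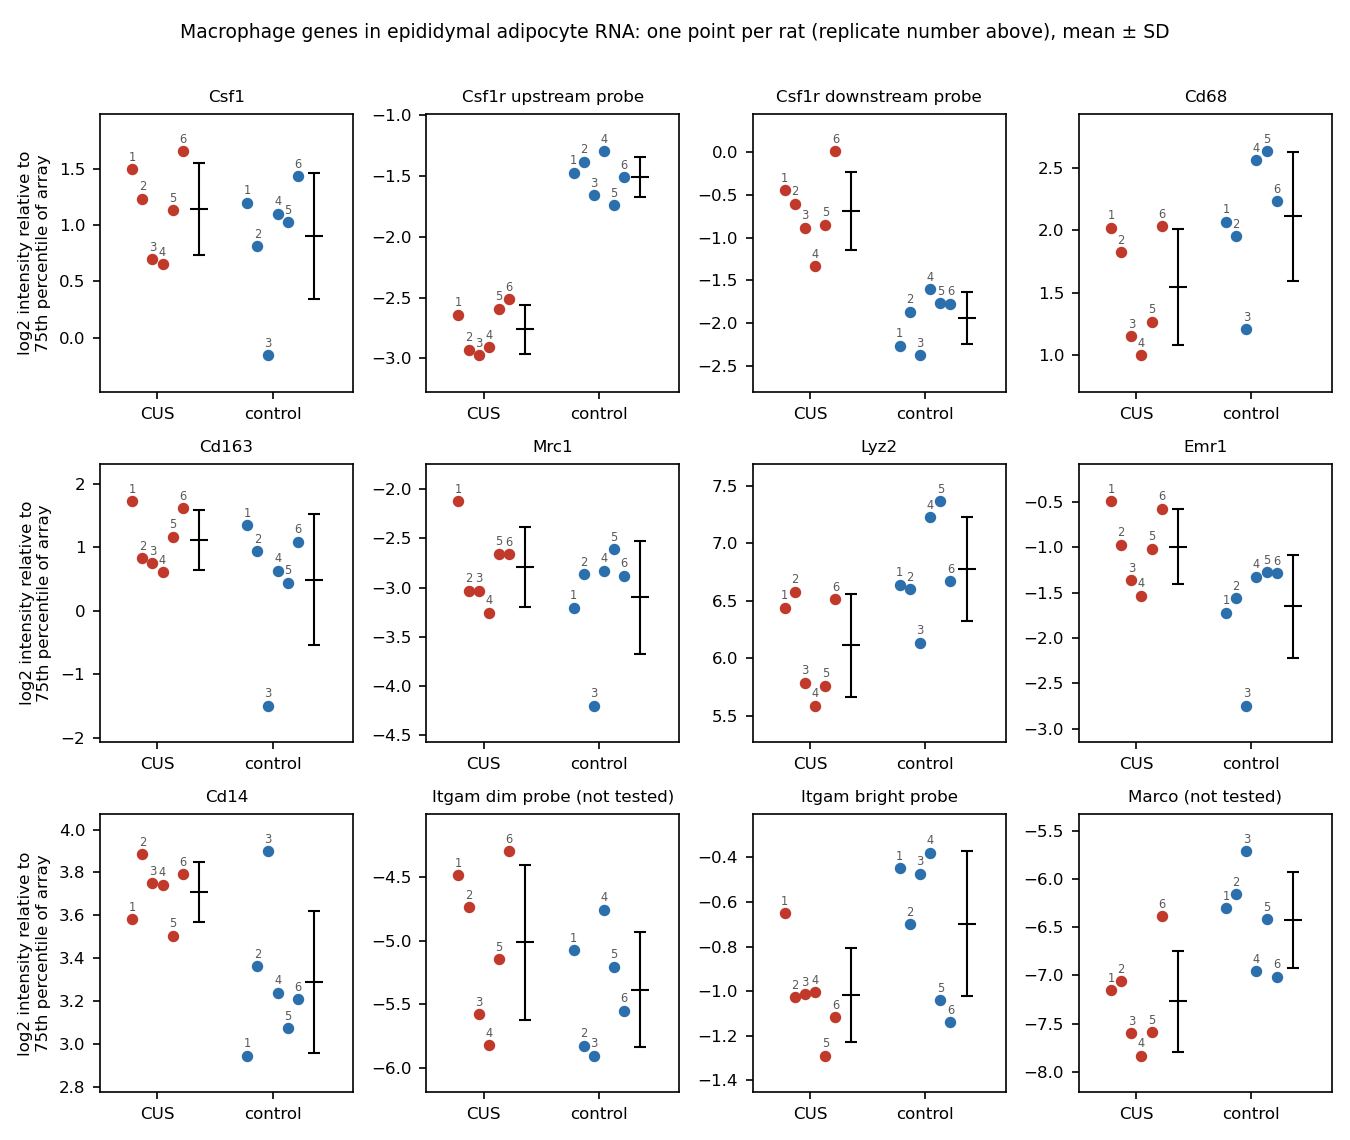
Log2 intensity relative to the 75th percentile of the array (y axis) of the 12 probes in 6 CUS rats (red, left) and 6 control rats (blue, right), with the replicate number above each point and the mean ± SD at the right of each group. The 2 Csf1r probes separate the groups in opposite directions, control replicate 3 is the lowest control for Csf1, Cd68, Cd163, Mrc1, Lyz2 and Emr1, and Marco was above background on 0 of 12 arrays.

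The growth factor Csf1 and its receptor were measured in every rat, and the receptor gave 2 opposite readings. Csf1, which keeps macrophages alive, ranged between 0.65 and 1.66 (median 1.18) in CUS and between -0.16 and 1.44 (median 1.07) in controls. The groups overlapped over most of their range, with control replicate 3 as the single value below 0. The difference was 0.24 with a standard error of 0.26 (limma adjusted p = 0.45), and 0.03 without control replicate 3 (adjusted p = 0.90). The Csf1 probe lies at chr2:203292994-203293053 of the rat genome build rn4, on the minus strand.

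Csf1r is read by a probe at chr18:57093036-57093095 and by another whose match spans chr18:57105231-57105932, both on the plus strand of rn4 and with starts 12195 bases apart. The array design lists both for the same RefSeq transcript. They are called here the upstream and the downstream probe, and their sequences are shown because they read the same gene in opposite directions. They share no run longer than 6 bases.
Csf1r upstream probe: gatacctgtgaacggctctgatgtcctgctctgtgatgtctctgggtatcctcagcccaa
Csf1r downstream probe: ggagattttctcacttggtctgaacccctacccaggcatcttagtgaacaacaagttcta

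The downstream probe of Csf1r ranged between -1.33 and 0.01 (median -0.73) in CUS and between -2.37 and -1.60 (median -1.82) in controls. Each CUS rat was above each control rat, with CUS replicate 6 highest and CUS replicate 4 nearest to the controls. The transcript part read by this probe was 2.39-fold higher in CUS, with a log2 difference of 1.25 and a standard error of 0.21 (limma adjusted p = 0.00048). The difference passed under all 24 alternatives tried, at 1.17 without control replicate 3 and 0.79 with the normexp background correction. In the same RNA, the upstream probe ranged between -2.98 and -2.51 (median -2.78) in CUS and between -1.74 and -1.29 (median -1.49) in controls. Here each CUS rat was below each control rat, and the spread within a group was small (SD 0.20 in CUS and 0.17 in controls, n = 6 each). The difference was -1.25 with a standard error of 0.11 (limma adjusted p = 6.8e-06), which is a 2.38-fold higher level in controls. It passed under 23 of the 24 alternatives and missed the threshold with spike-in scaling, at -0.42 (adjusted p = 0.13).

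The distance between both probes within one array does not move with the scaling between arrays. The downstream minus the upstream probe was 1.58 to 2.52 in CUS and -0.79 to -0.02 in controls. As levels are not compared between probes, the sign of this distance has no meaning. Only its difference between the groups does, which was 2.51. The contrast was chosen after the opposite calls were seen, and since neither probe had overlapping groups the distances could not overlap, so that the value is a description with no test. Among 2078 genes with 2 or more tested probes on one chromosome and strand, the difference between the probes at the 2 ends had a median of -0.08 and a 5th to 95th percentile range of -0.84 to 0.88, and 13 genes, or 0.626%, differed by at least as much as Csf1r. Probes at the 2 ends were called in opposite directions in 62 genes (2.98%), 28 of them with the downstream probe higher, as in Csf1r. Over the 297 genes whose probes were at least as far apart as those of Csf1r the median was 0.02. Which of the 2 probes reads the full receptor transcript was not tested, and no single direction is given for the gene.

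**Figure D2:**
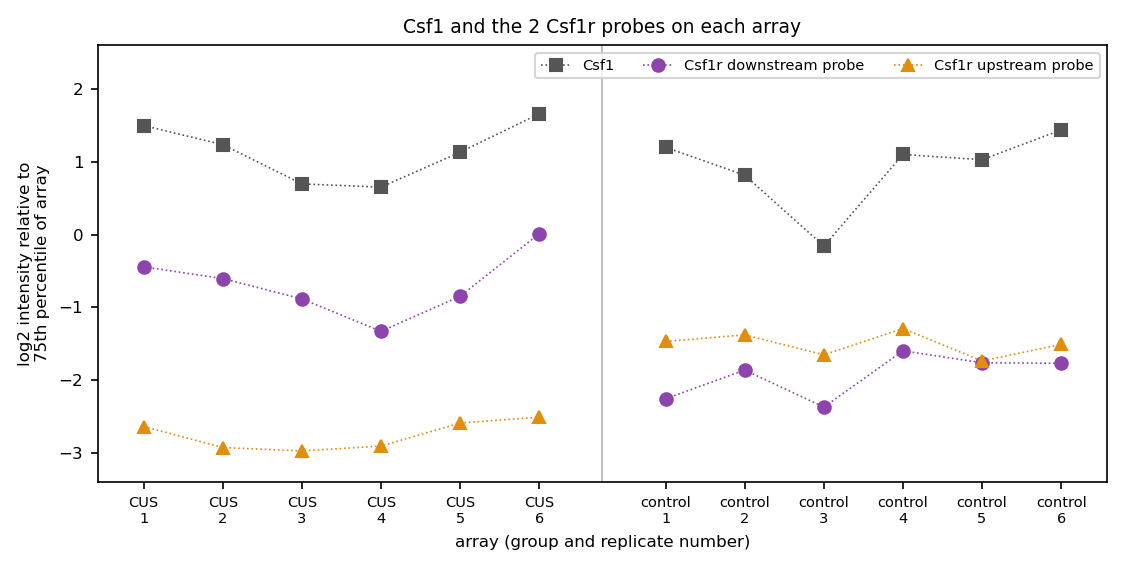
Log2 intensity relative to the 75th percentile of the array (y axis) of Csf1 (squares), the downstream Csf1r probe (circles) and the upstream Csf1r probe (triangles) on each array (x axis), CUS replicates 1 to 6 on the left and control replicates 1 to 6 on the right. The downstream probe lies 1.58 to 2.52 above the upstream probe in CUS and 0.02 to 0.79 below it in controls. Only the change between the groups has a meaning, since levels are not compared between probes.

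Ligand and receptor were also set against each other within each array, where only the difference between the groups has a meaning. The Csf1r probe used was the downstream one, which is brighter over both groups together but not in each. Its mean was -0.68 in CUS, against -2.76 for the upstream probe, and -1.94 in controls, against -1.51. The choice thus rests on the CUS levels, so the p-values for this probe cannot give a direction for ligand against receptor. Csf1 minus the downstream Csf1r probe was 1.58 to 1.98 in CUS and 2.21 to 3.46 in controls, with no overlap. The shift was -1.01 (exact permutation test over 924 assignments, two-sided, p = 0.0022, the smallest that 6 against 6 arrays allow), and -0.54 with the normexp correction (exact permutation test, p = 0.035). The sign depends on the Csf1r probe, since the shift was 1.49 against the upstream probe, a contrast added after the data were seen, and 0.24 against the mean of both probes (exact permutation test, p = 0.27).

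Genes of the receptor axis moved in both directions. Of the 20 listed genes of the CSF1 receptor axis, 17 were tested by their brightest probe, of which 4 were higher in CUS and 2 lower, while 11 missed the threshold (median difference -0.14). Csf1r itself was one of the 4, by its downstream probe, although its upstream probe was lower. With the mean of all tested probes of each gene, 3 were higher and 2 lower. Over all 17395 genes tested in this way, 50% passed (24.2% higher and 25.8% lower, median -0.02). The second ligand, Il34, differed by -0.46 (limma adjusted p = 0.21), the adaptor Tyrobp by -0.20 (adjusted p = 0.53) and Spi1, the transcription factor PU.1 that drives Csf1r in macrophages, by -0.29 (adjusted p = 0.34). Maf, a transcription factor of resident macrophages, was higher by 0.36 (adjusted p = 0.035, and 0.053 without control replicate 3), and the neutrophil growth factor Csf3 by 0.62 (adjusted p = 0.036). Csf2, the granulocyte and macrophage growth factor GM-CSF, was well above background on 6 of 6 CUS arrays and 0 of 6 control arrays, with a level at least 3.69-fold higher in CUS, against a log2 difference of 0.03 with the normexp correction (adjusted p = 0.87). It met the signal condition through the CUS arrays alone, and without it 3 of 16 genes of the axis were higher, Csf1r among them. The Csf2 receptor subunit Csf2ra fell by 0.43 (adjusted p = 0.014), and Irf8, a transcription factor of monocytes and dendritic cells, fell by 1.24 (adjusted p = 0.017). Irf8 was well above background on only 3 CUS and 4 control arrays. Its call was lost with quantile normalization (-0.70, adjusted p = 0.16) and with spike-in scaling (-0.41, adjusted p = 0.39). The count of lower genes was 6 without control replicate 3 and 0 with spike-in scaling, where Csf2ra differed by 0.40 (adjusted p = 0.12). Without that control array Il34 passed at -0.74 (adjusted p = 0.0035).

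Of the 3 genes used most to recognise macrophages, Lyz2 was lower in CUS, and Cd68 and Emr1 did not pass and pointed in opposite directions. In bulk RNA, fewer macrophages and less of a transcript per macrophage cannot be told apart. Lyz2, the lysozyme of myeloid cells, ranged between 5.59 and 6.58 (median 6.11) in CUS and between 6.14 and 7.37 (median 6.66) in controls. The groups overlapped, with 3 of 6 CUS rats below the lowest control. The log2 difference was -0.66 with a standard error of 0.24 (limma adjusted p = 0.034), or 1.58-fold higher in controls. The call passed under 15 of the 24 alternatives. It was lost without CUS replicate 3, 4 or 5 or control replicate 4 or 5 (adjusted p up to 0.077). With the replicate number as a block (adjusted p = 0.058) and the methods' t-test (adjusted p = 0.060) it also missed. The difference was 0.17 with spike-in scaling (adjusted p = 0.65) and 0.11 with no scaling (adjusted p = 0.73). Its probe, at chr7:56607738-56607797 on the minus strand of rn4, is also listed for another RefSeq transcript, so that a neighbouring lysozyme copy may share the reading.

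Cd68, a glycoprotein of macrophage lysosomes, ranged between 1.00 and 2.03 (median 1.55) in CUS and between 1.21 and 2.64 (median 2.15) in controls. Both groups spread over more than 1 on the log2 scale and overlapped, with control replicate 3 far below the other controls. The difference was -0.56 with a standard error of 0.26 (limma adjusted p = 0.086). Without control replicate 3 it was -0.74 and passed (adjusted p = 0.011), and with spike-in scaling it was 0.27 (adjusted p = 0.48). The probe lies at chr10:56481726-56481785 on the minus strand.

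Emr1 (current symbol Adgre1) encodes an adhesion receptor used as a macrophage marker in rodents. It ranged between -1.53 and -0.49 (median -0.99) in CUS and between -2.75 and -1.28 (median -1.44) in controls. Of the CUS rats, 4 of 6 were above the highest control, and control replicate 3 was lowest. The difference of 0.66 with a standard error of 0.26 lay at the threshold (limma adjusted p = 0.051). It passed under 12 of the 24 alternatives, among them quantile normalization (adjusted p = 0.042) and the stricter filter that asks for all 12 arrays (adjusted p = 0.045). Without control replicate 3 it was 0.44 (adjusted p = 0.058). The array design places this probe on unassigned sequence of rn4.

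Relative to Cd68 on the same array, the other members shifted by different amounts, and these values are given with no test. They were not among the planned contrasts. Cd68 itself differed by -0.56, which enters each of them. On their own, Csf1 (0.24) and Emr1 (0.66) did not pass and their groups overlapped. How often other probes separate the groups relative to Cd68 is not given. The downstream Csf1r probe minus Cd68 differed by 1.82 between the groups, Emr1 minus Cd68 by 1.22 and Csf1 minus Cd68 by 0.81, each with no overlap between CUS and control. For Cd163 the value was 1.19, for Cd14 0.98, for Mrc1 0.87 and for the bright Itgam probe 0.24, all with overlap. Lyz2 minus Cd68 differed by -0.10, a shift much like that of Cd68, and the upstream Csf1r probe minus Cd68 by -0.69, both with overlap.

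**Figure D3:**
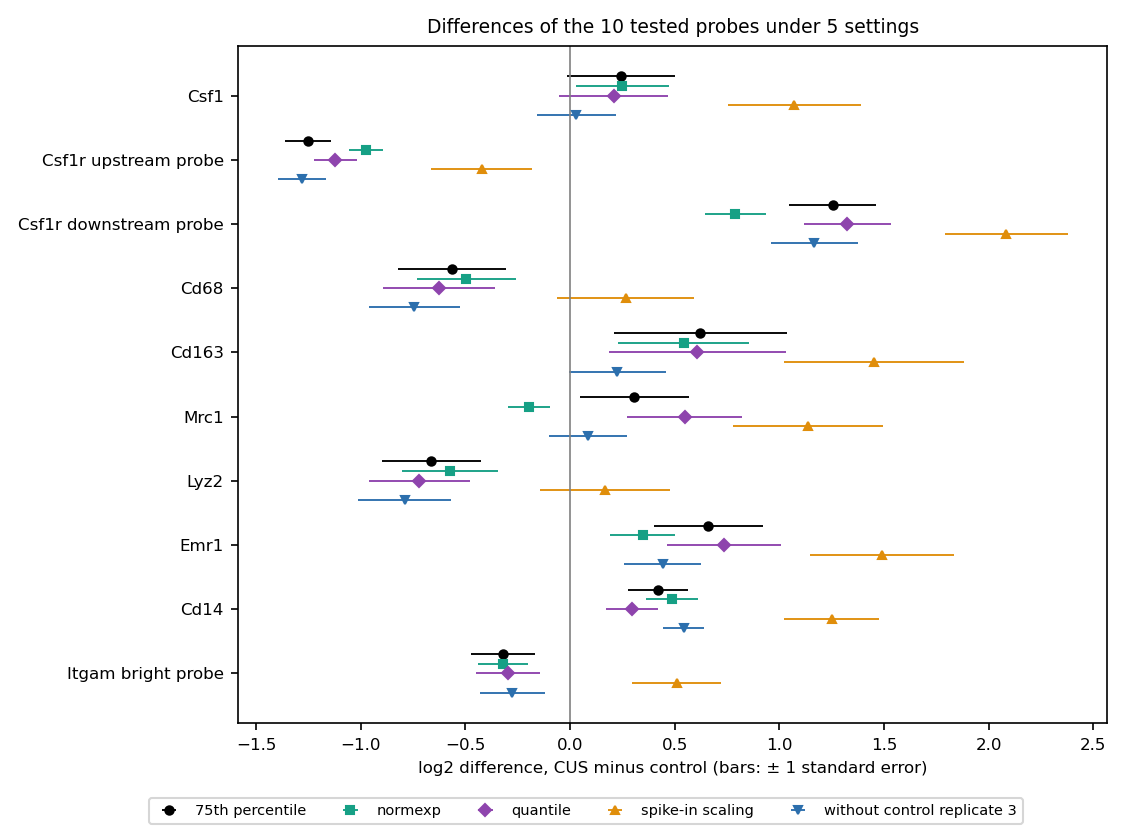
Log2 difference of the 10 tested probes, CUS minus control (x axis, bars ± 1 standard error), with the 75th percentile scaling used in the text (black circles), normexp background correction (green squares), quantile normalization (purple diamonds), spike-in scaling (orange triangles) and without control replicate 3 (blue triangles). The downstream Csf1r probe lies right of 0 and the upstream probe left of 0 in each setting shown, while Cd68, Lyz2 and the bright Itgam probe cross 0 with spike-in scaling and Mrc1 with normexp.

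The wider macrophage markers were likewise split. Of 28 listed genes, none of them a member, 23 were tested, of which 5 were higher in CUS and 4 lower, while 14 missed the threshold (median -0.05). Over all genes 24.2% were higher and 25.8% lower. The complement subunit C1qc, made mostly by macrophages, was higher by 1.65 (limma adjusted p = 0.0023) and its partner C1qa by 0.99 (adjusted p = 0.038). C1qa missed the threshold with quantile normalization (0.86, adjusted p = 0.077). The partner C1qb did not pass, at 0.72 (adjusted p = 0.12). Ms4a7, a membrane protein of macrophages, was higher by 1.19 (adjusted p = 0.0023), and by 0.16 with the normexp correction (adjusted p = 0.20). The surface receptors Cd84 and Trem2 were lower with no overlap between the groups. Cd84, a leukocyte contact receptor, had a level of -4.53 to -3.11 in CUS and -2.73 to -0.93 in controls, a difference of -2.22 (adjusted p = 0.00012) that also passed with spike-in scaling at -1.39 (adjusted p = 0.0033). Trem2, the lipid-sensing receptor of macrophages in fat, had a level of 1.73 to 2.51 in CUS and 2.91 to 4.03 in controls, a difference of -1.39 (adjusted p = 0.00026, and -0.56 with adjusted p = 0.083 under spike-in scaling). Aif1, the macrophage protein IBA1, fell by 0.85 (adjusted p = 0.018), and differed by -0.02 with spike-in scaling (adjusted p = 0.97). Siglec1, the sialoadhesin of resident macrophages, differed by -0.06 (adjusted p = 0.87), and Mpeg1 was above background on 0 CUS and 3 control arrays and was not tested. With spike-in scaling 12 of the 23 genes were higher and 1 was lower, and with normexp 3 were higher and 9 lower.

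The scavenger receptors of the set did not pass. Cd163, which takes up hemoglobin bound to haptoglobin, ranged between 0.60 and 1.73 (median 1.00) in CUS and between -1.49 and 1.35 (median 0.78) in controls. The groups overlapped, and control replicate 3 was the single value below 0. The difference was 0.62 with a standard error of 0.41 (limma adjusted p = 0.22), and 0.23 without that rat (adjusted p = 0.42). Its probe lies at chr4:160423704-160423763 on the plus strand.

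Mrc1, the mannose receptor, ranged between -3.26 and -2.12 (median -2.85) in CUS and between -4.20 and -2.61 (median -2.87) in controls. The medians nearly coincided, with CUS replicate 1 high and control replicate 3 low. The difference was 0.31 with a standard error of 0.26 (limma adjusted p = 0.34), 0.09 without control replicate 3, and -0.20 with the normexp correction (adjusted p = 0.10). The match of this probe spans chr17:88489156-88491763 on the plus strand, over 2608 bases. Marco, a scavenger receptor of alveolar and marginal zone macrophages, was well above background on 0 of 12 arrays, so that no level or fold is given. Cd163 and Mrc1 pass as higher only where the arrays are left unscaled or are scaled to the spike-ins.

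Transcripts that handle the cargo of Cd163 were mostly higher in CUS. Of 13 tested genes of hemoglobin and heme handling, 8 were higher and 1 lower (against 24.2% and 25.8% of all genes), while 4 missed the threshold (median 0.52). Hmox1, which breaks down heme, had a level of 1.56 to 2.61 in CUS and -1.75 to -0.65 in controls and was higher by 3.03 (limma adjusted p = 3.5e-06). The heme transporter Slc48a1 was higher by 1.17 (adjusted p = 5.1e-05), the biliverdin reductase Blvra by 1.04 (adjusted p = 0.00026) and Lrp1, the receptor for heme bound to hemopexin, by 0.59 (adjusted p = 0.00055). Haptoglobin (Hp), the carrier that brings hemoglobin to Cd163, differed by -0.16 (adjusted p = 0.60), and was higher by 0.67 with spike-in scaling (adjusted p = 0.014). The same RNA held more red blood cell transcripts in CUS, with 7 of 7 measured genes higher and a mean level of 5.42 to 6.20 in CUS and 0.45 to 1.45 in controls. The part of red blood cell RNA in these differences was not tested.

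Other scavenger receptors were split. Of 12 tested, 2 were higher and 5 were lower (against 24.2% and 25.8% of all genes), with a median of -0.40, and without control replicate 3 the count of lower genes was 8. Cd36, the fatty acid translocase that adipocytes also express, fell by 0.47 (limma adjusted p = 0.0010), and Scarf1, a receptor of endothelial cells and macrophages, fell by 1.14 (adjusted p = 0.0032). With spike-in scaling 4 of the 12 were higher and 0 lower, and Cd36 differed by 0.36 (adjusted p = 0.21). Lysosomal proteins, the class to which Cd68 belongs, were higher in 8 of 18 tested genes and lower in 1 (against 24.2% and 25.8% of all genes), and higher in 16 and lower in 0 with spike-in scaling. Cd63 was higher by 0.59 (adjusted p = 0.00030), the cathepsins Ctsz by 0.94 (adjusted p = 0.00045) and Ctsh by 0.65 (adjusted p = 0.00066), and Lamp1 by 0.81 (adjusted p = 0.0013). These genes are expressed by most cell types, adipocytes included.

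The bacterial lipid receptor Cd14 was higher in CUS by a small amount, whereas the integrin Itgam did not pass. Cd14, which hands lipopolysaccharide to TLR4, ranged between 3.50 and 3.89 (median 3.75) in CUS and between 2.95 and 3.90 (median 3.23) in controls. Of the controls, 5 lay below each CUS rat, and control replicate 3, at 3.90, lay above all of them. The log2 difference was 0.42 with a standard error of 0.14 (limma adjusted p = 0.027), a 1.34-fold higher level in CUS. Without control replicate 3 the groups no longer overlapped and the difference was 0.54 (adjusted p = 0.00058). The call passed under 13 of the 24 alternatives. It missed the threshold with quantile normalization (0.30, adjusted p = 0.070), the deposited normalized values (adjusted p = 0.070) and the methods' t-test (adjusted p = 0.055). It was also lost without CUS replicate 2, 3, 4 or 6 or control replicate 1, 4, 5 or 6, with adjusted p up to 0.061. The probe lies at chr18:29374990-29375049 on the minus strand.

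Among Cd14 and its partners, 2 of 10 tested genes were higher and 0 lower (median 0.10), against 24.2% and 25.8% of all genes. Cd14 itself was one of the 2. The other was Tlr2, the receptor for bacterial lipopeptides, which was higher by 1.08 with no overlap between the groups (limma adjusted p = 0.00018). The lipopolysaccharide receptor Tlr4 differed by 0.18 (adjusted p = 0.34) and its cofactor Ly96 by -0.03 (adjusted p = 0.90). With spike-in scaling 9 of the 10 were higher, and with normexp 3 were higher and 3 lower.

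Itgam encodes the alpha chain CD11b of the beta2 integrin of monocytes, macrophages and neutrophils, and has a bright and a dim probe. The bright probe matches chr1:187385524-187385583 and the dim probe spans chr1:187385032-187385565, both on the plus strand. Their sequences are shown because they overlap in one stretch of 34 bases, in capitals, and differ on either side of it.
Itgam bright probe: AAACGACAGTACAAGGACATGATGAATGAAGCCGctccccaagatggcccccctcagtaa
Itgam dim probe: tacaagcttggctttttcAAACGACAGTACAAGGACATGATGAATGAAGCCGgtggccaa

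The bright probe of Itgam ranged between -1.29 and -0.65 (median -1.02) in CUS and between -1.14 and -0.38 (median -0.59) in controls. Control replicates 1 to 4 were above 5 of the 6 CUS rats, while control replicates 5 and 6 lay among the CUS values. The difference was -0.32 with a standard error of 0.15 (limma adjusted p = 0.095). It was -0.32 and passed with the normexp correction (adjusted p = 0.030), and with spike-in scaling it passed in the other direction at 0.51 (adjusted p = 0.043). The dim probe ranged between -5.82 and -4.30 in CUS and between -5.90 and -4.76 in controls, was well above background on 4 CUS arrays and 1 control array, and was not tested.

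The chain that pairs with CD11b, Itgb2, had a level of -1.97 to -1.01 in CUS and -1.46 to -0.10 in controls and fell by 0.79 (limma adjusted p = 0.019). Of 7 tested partners of the beta2 integrins 3 were lower and 2 were higher (against 25.8% and 24.2% of all genes), with a median of -0.61. Itgad, an alpha chain related to CD11b, fell by 1.02 (adjusted p = 0.00045), and Fermt3, the kindlin that activates integrins in blood cells, fell by 0.95 (adjusted p = 0.0013). The ligand Icam1, made by endothelial and other cells, was higher by 1.40 (adjusted p = 1.4e-05), and Tln1, the talin of most cells, by 0.32 (adjusted p = 0.010). With spike-in scaling none of the 3 lower calls passed (Itgb2 at 0.04, adjusted p = 0.92), and 3 of the 7 genes were higher.

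Lists that describe the recruitment and state of macrophages were read in the same way, beside 24.2% higher and 25.8% lower over all genes. Of 14 tested genes of monocyte recruitment, 8 were higher in CUS and 4 were lower. The monocyte chemokine Ccl2 was higher by 1.52 (limma adjusted p = 0.0018), Ccl3 by 2.56 (adjusted p = 0.00011), Ccl4 by 2.93 (adjusted p = 8.3e-05) and Ccl5 by 1.97 (adjusted p = 0.00010), while Ccr2, the receptor of Ccl2, was above background on 2 CUS and 2 control arrays and was not tested. Of 9 tested genes of classical activation, 7 were higher and 1 was lower, with a median of 1.83, the cytokines Tnf at 2.73 (adjusted p = 0.00025), Il1b at 3.12 (adjusted p = 0.00053) and Il6 at 3.91 (adjusted p = 0.00069) among them. Ptgs2, an inducible prostaglandin synthase, was above background on 0 of 6 control arrays, with a level at least 3.13-fold higher in CUS, against a log2 difference of -0.14 with normexp (adjusted p = 0.28). It met the signal condition through the CUS arrays alone, and without it 6 of 8 genes of the list were higher. The lower gene was Nos2, the inducible nitric oxide synthase, which fell by 1.01 (adjusted p = 0.022) and differed by -0.18 with spike-in scaling (adjusted p = 0.61). Of 10 tested genes of alternative activation 2 were higher and 1 lower, while 7 missed the threshold (median -0.04), against 8 higher and 0 lower with spike-in scaling and 0 higher and 4 lower with normexp. The anti-inflammatory cytokine Il10 was higher by 1.24 (adjusted p = 0.030, and 0.21 with adjusted p = 0.28 under normexp) and Il4ra, a chain of the interleukin-4 receptor, by 0.47 (adjusted p = 0.027), whereas Tgm2, a transglutaminase of many cells, fell by 0.69 (adjusted p = 0.0046). Adipocytes and other stromal cells also express several of these genes, and which cells carried them was not tested.

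**Figure D4:**
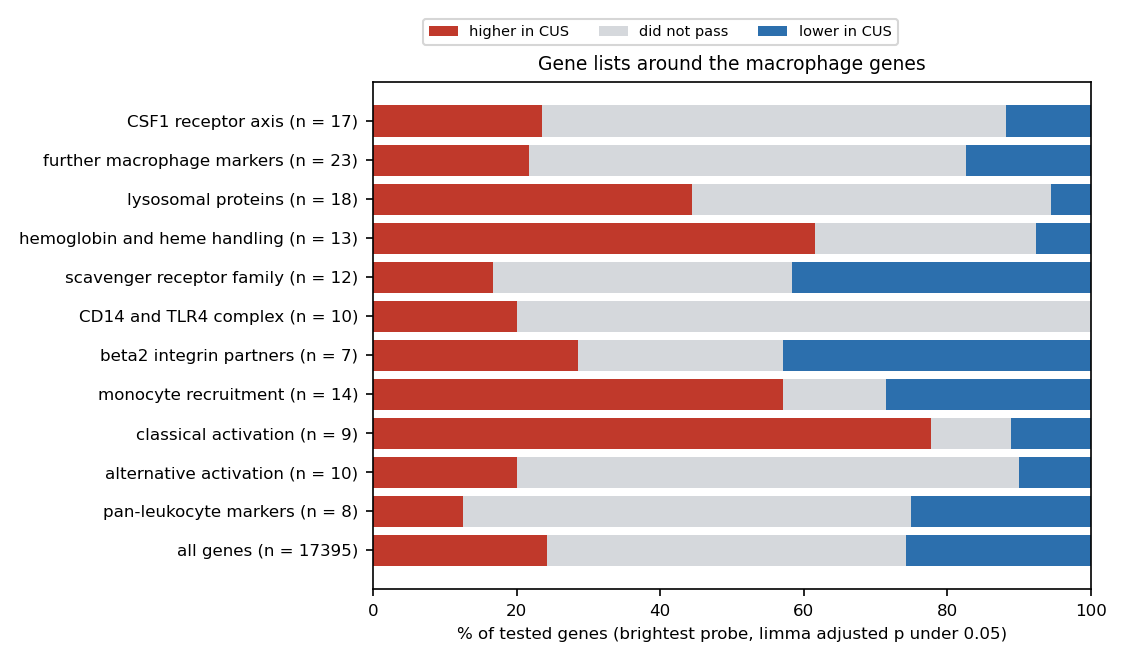
Share of tested genes of each list (x axis, in %) that were higher in CUS (red), did not pass (grey) or were lower in CUS (blue), by the brightest probe of each gene and an adjusted p under 0.05, with all 17395 genes in the lowest bar. Classical activation (7 of 9 higher), hemoglobin and heme handling (8 of 13) and monocyte recruitment (8 of 14) stand above the 24.2% of all genes, and the CSF1 receptor axis (4 of 17) and further macrophage markers (5 of 23) lie near it. Csf1r is counted as higher in the axis by its downstream probe alone. Ptgs2 and Csf2 met the signal condition through the CUS arrays alone. Without them, 6 of 8 genes of classical activation and 3 of 16 of the axis were higher. The lists were chosen with earlier results of these data known, so these shares are a description only.

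Markers of leukocytes as a whole had a median difference of -0.49, against -0.02 over all genes, and of 0.33 with spike-in scaling. Of 8 pan-leukocyte markers 1 was higher and 2 lower, while 5 missed the threshold, with a mean level of 1.00 to 1.77 in CUS and 0.10 to 1.68 in controls. Over all genes 24.2% were higher and 25.8% lower, which applies to each list of this paragraph. Ptprc, the leukocyte antigen CD45, fell by 0.89 (limma adjusted p = 0.031), and the actin bundler Lcp1 fell by 0.61 (adjusted p = 0.039), while Cd52, a small surface protein of lymphocytes and other blood cells, was higher by 4.80 (adjusted p = 1.8e-06). Without control replicate 3 the count of lower markers was 5, and with spike-in scaling 0 were lower and 2 were higher. Of other cell types, 8 of 9 mast cell markers were higher (mean level -3.07 to -1.59 in CUS and -5.32 to -4.90 in controls). Of these 9, 3 met the signal condition through the CUS arrays alone, and with normexp 5 were higher and 1 lower. Endothelial markers were lower in 6 of 12 genes and higher in 0 (mean level -0.41 to 0.53 in CUS and -0.46 to 1.40 in controls), and smooth muscle and pericyte markers were lower in 6 of 9 and higher in 1. With spike-in scaling the endothelial list had 1 higher and 1 lower gene and the smooth muscle list 1 higher and 2 lower. Every marker with a probe in these 4 lists met the signal condition for a test, and their part in the differences of the macrophage genes was not tested.

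Rats within a group differed for most members together. Of the 10 tested probes, 8 had their highest CUS value in replicate 1 or replicate 6, 7 had their lowest CUS value in replicate 4, and 7 had their lowest control value in replicate 3. Without any scaling the counts were 8, 2 and 9, where CUS replicate 4 is the array with the highest 75th percentile (626.6) and control replicate 3 that with the lowest (229.5). The upstream Csf1r probe, Cd14 and the bright Itgam probe had their lowest values in other rats than CUS replicate 4 and control replicate 3. Control replicate 3 had the highest control value of Cd14, and its bright Itgam value was among the 3 highest controls. CUS replicate 1 had the highest and CUS replicate 4 the lowest mean level of the further macrophage markers too, of which control replicate 3 had a mean level of -1.07, against 0.02 to 0.33 in the other controls.

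**Figure D5:**
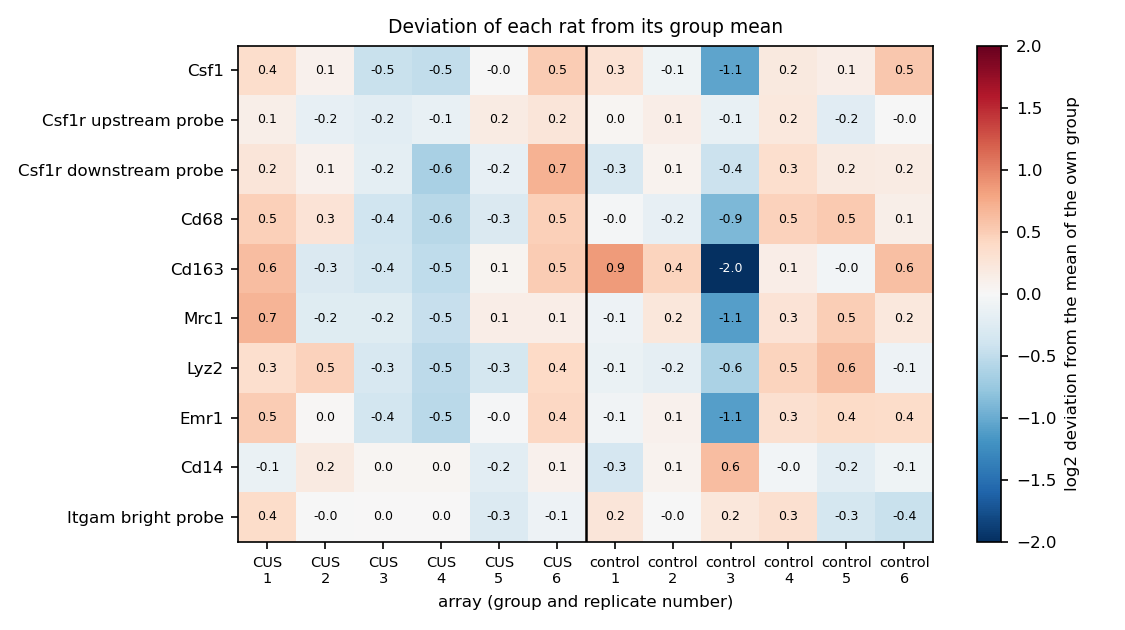
Deviation of each rat from the mean of its own group (colour and printed value, log2) for the 10 tested probes (rows) on the 6 CUS arrays (left of the line) and the 6 control arrays (right). Control replicate 3 is low for Csf1, Cd68, Cd163, Mrc1, Lyz2 and Emr1 and high for Cd14, and CUS replicates 1 and 6 are above their group mean for most probes.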

How the data were processed

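Epididymal adipocyte RNA of 6 CUS and 6 control rats was hybridised to 1-colour Agilent arrays, 1 per rat, and groups follow the labels. The authors deposited the scanner intensities of each spot as written by Agilent Feature Extraction (10.7.3.1). These intensities are, per the file headers, background-subtracted and detrended but not normalized between arrays. A deposited table of quantile normalized intensity values, put on the log2 scale here, served as an alternative. Probe positions refer to rn4, and the array is a gene expression array, although the methods speak of an exon array.

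Outlier spots were left out, log2 signals of a probe were averaged and the 75th percentile of non-control probes was subtracted. Probes with a signal well above background on 6 or more arrays were compared with limma 3.58.1 (R 4.3.3), two-sided, with no covariate. Where no array of a group had a probe above background, a bound of the fold is given, from the higher of its own signal and the lowest signal well above background on each array. Genes in lists are read from their brightest tested probe, named by RefSeq accession or symbol. Within-array differences used exact permutation tests. Python 3.11.15 with NumPy 2.4.6 and pandas 2.3.3 made the tables.

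The members and lists were chosen with earlier results of these data known. Named were all member probes, up to 4 passing genes per list with the smallest adjusted p, and 15 partners fixed by name. C1qa, C1qb, Csf3 and Nos2 were named after their values were seen. In simulated data over 19727 probes the test called 19 of 53 probes shifted by 0.5 on the log2 scale, 65 of 71 shifted by 1 and 74 of 76 shifted by 2, and it made 8 false calls. Far fewer probes were shifted there than the 50.1% called in the measured data. The adjustment of p-values therefore differs, and these rates do not give the sensitivity of the calls above. Precision is limited by the number of arrays. Rats are separate animals, and p-values set the difference between the groups against the spread between rats within a slide. That spread holds no part that comes from differences between the 2 slides. Rats were housed in pairs according to the paper, and shared cages were not accounted for.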

Additional observations from a re-analysis of the deposited data

Results flagged for a closer look

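In 24 groups of 6 arrays (12 probes, CUS and control), the gap between the most extreme array and its neighbour, divided by the range of the group, was set against Dixon's 95% critical value. It was above that value 3 times, each by control replicate 3 at the low end, and chance alone gives this in about 1 in 20 groups. For Cd163 the ratio was 0.681, with control replicate 3 at -1.49 and the next control at 0.44. For Emr1 it was 0.697, with -2.75 against -1.72, and for Mrc1 0.6252, with -4.20 against -3.21. The same rat had the highest adipocyte marker level of the 12 arrays (5.19).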

How the results depend on the processing

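Over the 24 alternatives the downstream Csf1r probe kept its call in all and the upstream probe in 23. Counts of member probes moved most with the scaling between arrays: with no scaling 7 were higher and 1 was lower, and with spike-in scaling 7 and 0, against 2 and 2. The methods' t-test gave 1 higher and 1 lower, both after Benjamini-Hochberg and at its unadjusted threshold with a 2-fold change, and array weights gave 4 lower. Leaving out 1 array gave 1 to 2 higher and 1 to 3 lower probes. The Cd14 call was lost without CUS replicate 2, 3, 4 or 6 or control replicate 1, 4, 5 or 6 (adjusted p over all 12: 0.00058 to 0.061), and the Lyz2 call without CUS replicate 3, 4 or 5 or control replicate 4 or 5 (0.0093 to 0.077). Directions turned for Cd68 (0.21 unscaled, 0.27 spike-in), Lyz2 (0.11 and 0.17) and the bright Itgam probe (0.46 and 0.51), for Mrc1 with normexp (-0.20) and array weights (-0.044), and for Csf1 with array weights (-0.013). Csf1 minus Csf1r turned to 0.24 with the mean of all probes and 1.49 with the upstream probe, was -0.54 with normexp and was -1.14 to -0.89 over the arrays left out. The number of lower further macrophage markers was 7 with no filter on dim probes. Without control replicate 3 the CSF1 receptor axis had 3 higher and 6 lower genes, and the further markers 4 and 6. With spike-in scaling these lists had 8 and 0, and 12 and 1. The causes were not tested. The contrasts between the Csf1r probes and with the upstream probe, and for the lists the scaling alternatives and the omission of control replicate 3, were chosen after seeing the data. The replicate numbers share only the position on the slide. Deviations of same-numbered arrays correlated between -0.19 and 0.43, 2 of 6 CUS arrays correlated best with their own number, and with the replicate block 3 member probes were higher and 2 lower, with Emr1 (adjusted p = 0.028) and the bright Itgam probe (0.034) passing and Lyz2 not (0.058). Paired by number, Csf1 minus the downstream Csf1r probe, a choice that rests on the CUS levels, was -1.01 (exact sign-flip p = 0.031, the smallest allowed). The Csf1r distance was 2.51. Marco and the dim Itgam probe are limited by signal over background.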
